A study of Mus musculus with 9 samples.

Results

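The sarcomere scaffold and Xin repeat genes are 10 genes, Ttn, Neb, Xirp1, Xirp2, Nrap, Myom1, Myom2, Lmod2, Tmod1 and Tmod4, among 16937 genes listed for mouse brown adipose tissue. They were selected by name with their measured difference between GCN2 KO Cold and WT Cold in view, so that difference is given as a description, with no p-value for a gene, and counts past the thresholds stand there only beside those of all genes. GCN2, encoded by Eif2ak4, is a kinase that senses uncharged transfer RNA and starts the integrated stress response. The study asked how the brown fat transcriptome responds to acute cold with and without it. All animals were adult C57Bl/6J mice, singly housed, and the study states that its sequenced groups held both sexes. WT RT mice were held at 23 °C, WT Cold mice spent 8 h at 4 °C, and GCN2 KO Cold mice, in which Gcn2 is deleted in the whole body (Gcn2 -/-), spent the same 8 h at 4 °C. Each group had 3 libraries, called A, B and C as the authors' library codes sort. The 3 tables, 1 for each pair of groups, listed 16679, 16312 and 16560 genes, and all 10 genes were in each. GCN2 KO mice kept at 23 °C were not analysed here, so genotype was compared in the cold alone.

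Striated muscle contracts through sarcomeres, repeated units in which thin actin filaments slide past thick myosin filaments between Z-discs. Titin spans from the Z-disc to the M-band as an elastic ruler, nebulin runs along the thin filament, myomesins tie thick filaments together at the M-band, and leiomodins and tropomodulins set the length of the thin filament at its pointed end. Xin repeat proteins bind actin where muscle cells are attached or under strain. Brown adipocytes share a developmental lineage with skeletal muscle, but mature sarcomeres belong to striated muscle, which lies next to the interscapular brown fat depot.

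The targeted gene was not lower under the GCN2 KO label. Eif2ak4 had 6.46, 8.31 and 8.34 CPM (reads scaled to a common library total) in WT Cold, and 11.9, 12.7 and 11.8 CPM in the GCN2 KO Cold-labelled libraries. WT RT had 11.1, 12.6 and 13.0 CPM. Both the WT RT and the GCN2 KO Cold-labelled libraries were thus above all of WT Cold, and counts summed over exons do not show which exons were read. The title of 1 sample with the genotype GCN2 KO also says WT. It was grouped by its genotype label, and its column in the tables could not be told from those of the other 2 samples of the group. Depth ranged from 27058799 to 30768064 reads on listed genes. All 12 of 12 brown adipocyte markers were listed, with a summed level of 18871 to 30377 CPM. Library C stood apart in both cold groups. The Y-linked transcript Ddx3y had 7.02 CPM in library C of WT Cold and 10.5 CPM in library C of the GCN2 KO Cold-labelled libraries, against 84.8 to 144 CPM in the 7 other libraries. Xist, transcribed from the inactive X chromosome, had 131 and 127 CPM in the same pair, against 11.2 to 43.5 CPM. The labels give no sex for any library. No WT RT library had this pattern, with Ddx3y at 86.8 to 93.4 CPM and Xist at 12.5 to 26.3 CPM. The comparisons with WT RT are thus unbalanced in it, and its part in them was not tested. Codes of the WT RT libraries start with other letters than the codes of the cold libraries. What the letters stand for is not given in the sources used here, and their part in a comparison with WT RT was not tested.

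RefSeq promoter sequences on GRCm38.p6 were matched for 7 of the 10 genes. Neb, Xirp1 and Myom2 had none and were not searched. The promoters of Ttn, Xirp2 and Lmod2 are shown, read 5′ to 3′ along the gene and ending at the base before the transcription start, with capitals for the match to the binding motif of MEF2, a muscle transcription factor. Ttn (chr2:76982548-76982797, minus strand) and Xirp2 (chr2:67445752-67446001, plus strand) are shown because they held such a match, and Lmod2 (chr6:24597521-24597770, plus strand) because it rose in the cold in WT mice and held none.
Ttn: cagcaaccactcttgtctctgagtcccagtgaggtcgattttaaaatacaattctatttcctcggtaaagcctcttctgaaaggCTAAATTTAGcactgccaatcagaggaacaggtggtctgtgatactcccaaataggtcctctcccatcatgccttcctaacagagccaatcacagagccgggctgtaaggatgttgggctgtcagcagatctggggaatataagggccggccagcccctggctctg
Xirp2: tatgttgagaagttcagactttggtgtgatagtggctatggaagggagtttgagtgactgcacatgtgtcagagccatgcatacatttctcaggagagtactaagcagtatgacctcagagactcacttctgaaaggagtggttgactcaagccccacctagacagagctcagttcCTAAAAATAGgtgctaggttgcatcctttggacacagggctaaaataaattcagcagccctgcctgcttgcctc
Lmod2: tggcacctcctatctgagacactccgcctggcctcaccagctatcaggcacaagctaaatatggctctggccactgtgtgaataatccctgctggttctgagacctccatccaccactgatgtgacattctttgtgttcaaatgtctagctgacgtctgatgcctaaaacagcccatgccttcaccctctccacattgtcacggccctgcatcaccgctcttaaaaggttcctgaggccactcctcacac
Both strands of these 250 bases were searched. MEF2 matched 2 of the 7 promoters, at 166 to 157 bases before the start in Ttn and 74 to 65 in Xirp2, and 2.89% of 32544 promoters held it. The CArG box, bound by serum response factor, matched Myom1 at 99 to 90 bases before the start and 1.48% of all promoters. The E-box CANNTG, which muscle regulatory factors bind, was in 6 of the 7 promoters, all but Tmod1, and in 66.2% of all promoters. The narrower form CAGCTG, itself a kind of CANNTG, was in Nrap at 16 to 11 bases and in 13.1% of all. CATTCC, the core of the MCAT element, was in Tmod1 at 163 to 158 bases and in 12.6% of all. TATAAA was in none of the 7 and in 12.3% of all. Lmod2 held the CANNTG match alone of these motifs, at 112 to 107 bases. No searched motif other than CANNTG was common to more than 2 of the 7 promoters.

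Titin and nebulin, the giant rulers of the sarcomere, were the most read of the 10 genes in WT libraries, with 1445 to 5319 reads in each WT library. Ttn had 129, 106 and 103 CPM in WT RT and 184, 128 and 104 CPM in WT Cold. It had 46.8, 38.2 and 10.98 CPM in the GCN2 KO Cold-labelled libraries. The 2 WT groups overlapped, and all 3 libraries labelled GCN2 KO Cold lay below every WT library. Neb had 76.3, 58.8 and 57.4 CPM in WT RT, and 81.7, 58.1 and 50.2 CPM in WT Cold. In the GCN2 KO Cold-labelled libraries it had 23.4, 21.3 and 9.13 CPM. The WT groups overlapped again, with near-equal means of 64.2 CPM in WT RT and 63.3 CPM in WT Cold, and the GCN2 KO Cold-labelled libraries lay below both.

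The Xin repeat genes differed from each other. Xirp1, which marks attachment sites and strained or growing muscle, had 5.12, 7.93 and 7.02 CPM in WT RT. It had 59.2, 39.6 and 25.1 CPM in WT Cold and 4.34, 2.71 and 1.85 CPM in the GCN2 KO Cold-labelled libraries. Every WT Cold library was above every other library, with 25.1 CPM as the lowest of them against 7.93 CPM as the highest of the rest. Xirp2, its relative at attachment sites and costameres, had 31.1, 32.4 and 28.6 CPM in WT RT. It had 41.1, 30.0 and 21.4 CPM in WT Cold and 9.66, 8.20 and 3.10 CPM in the GCN2 KO Cold-labelled libraries. Xirp2 in WT Cold spread around the WT RT values on both sides, unlike Xirp1. Nrap, a nebulin repeat scaffold of early myofibrils and of the junction with tendon, had 25.9, 26.2 and 23.3 CPM in WT RT. It had 49.3, 34.4 and 26.7 CPM in WT Cold and 9.95, 8.90 and 3.73 CPM in the GCN2 KO Cold-labelled libraries. All WT Cold libraries were above WT RT here too, although library C exceeded the highest WT RT library only narrowly.

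Among the M-band crosslinkers, Myom1 varied least between groups. It had 44.8, 35.5 and 35.2 CPM in WT RT and 53.6, 44.8 and 33.8 CPM in WT Cold. It had 29.0, 23.4 and 19.0 CPM in the GCN2 KO Cold-labelled libraries, the highest of which was below the lowest WT library. Myom2, which encodes the M-protein of fast fibres, had 24.2, 18.5 and 17.9 CPM in WT RT and 38.3, 27.1 and 20.1 CPM in WT Cold. It had 9.40, 7.93 and 2.66 CPM in the GCN2 KO Cold-labelled libraries. WT Cold overlapped WT RT in both genes.

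At the pointed end of the thin filament, Lmod2 elongates and the tropomodulins cap. Lmod2 had 16.1, 13.8 and 15.1 CPM in WT RT and 35.8, 24.6 and 31.7 CPM in WT Cold. It had 7.67, 5.67 and 1.96 CPM in the GCN2 KO Cold-labelled libraries, and none of the 3 groups overlapped. Tmod1 had 5.88, 5.46 and 4.69 CPM in WT RT and 6.91, 5.35 and 5.07 CPM in WT Cold, with 2.495, 2.02 and 0.961 CPM in the GCN2 KO Cold-labelled libraries. Of the exonic bases of Tmod1, 32.6% overlap Tstd2 on the opposite strand. The counting is not stated to use strand, so reads of the pair cannot be told apart and the level of Tmod1 is uncertain. Tstd2 was listed at 8.57 to 16.8 CPM. Tmod4, the tropomodulin of skeletal muscle, had 11.4, 9.52 and 8.86 CPM in WT RT and 12.9, 10.3 and 6.04 CPM in WT Cold. It had 4.95, 3.06 and 0.924 CPM in the GCN2 KO Cold-labelled libraries, where library C rested on 25 reads. In the other genes, exonic bases shared with any 1 gene were 4.87% or less.

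**Figure D1:**
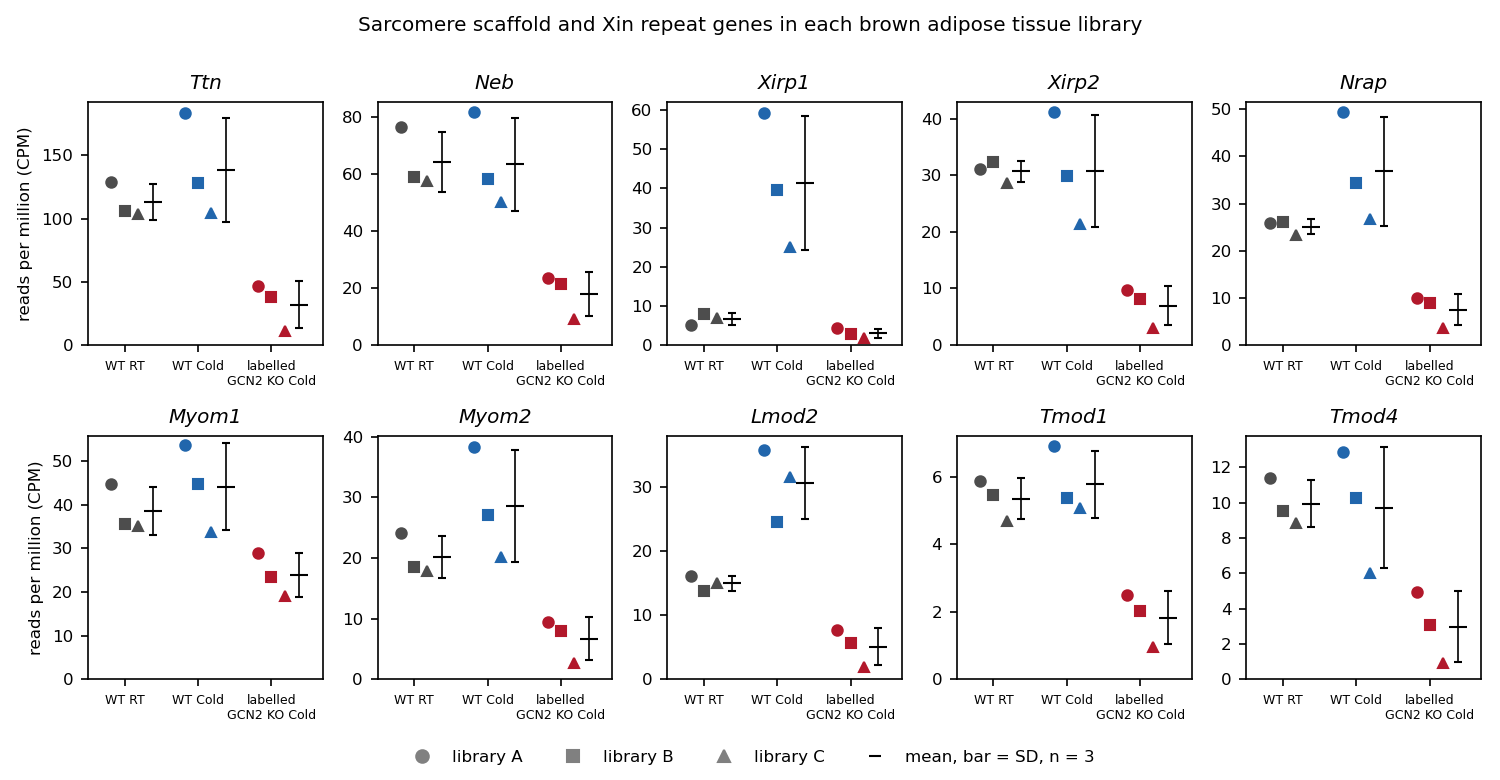
CPM (linear axis from 0) of each gene in each library, with marker shape for library A, B and C, and the mean with its SD (n = 3) in black. Xirp1 and Lmod2 in WT Cold sit above all WT RT libraries, and the GCN2 KO Cold-labelled libraries are below all WT Cold libraries in all 10 genes.

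In both cold groups the libraries kept nearly the same order across the genes, and in WT RT less so. Library A was the highest of its group for all 10 genes in WT Cold and for all 10 in the GCN2 KO Cold-labelled libraries. Library C was the lowest for 9 of 10 in WT Cold and for 10 of 10 in the GCN2 KO Cold-labelled libraries. The exception was Lmod2, whose lowest WT Cold value was in library B. In WT RT, library A was highest for 7 genes and library B for 3, and library C was lowest for 8. Relative to the mean of WT RT, the median of the 10 genes on the log2 scale was 0.59, 0.20 and -0.08 in WT Cold libraries A, B and C. It was -0.95, -1.33 and -2.48 in the GCN2 KO Cold-labelled libraries, so 1 library of that group was far lower than the other pair. The highest value exceeded the lowest by 1.53-fold for Myom1 and by up to 5.36-fold for Tmod4 in that group, against 1.12-fold to 1.55-fold in WT RT. For all 10 genes this spread was wider than in WT RT. Across the 9 libraries, Pearson's r between pairs of the 10 genes ran from 0.676 to 0.993 over 45 pairs, with a median of 0.959. The points share 3 groups and 3 libraries within each. The lowest value was between Xirp1 and Tmod4, and the median r of Xirp1 with the 9 others was 0.756.

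Per kilobase of annotated exon, the order of levels was led by short thin-filament genes. In WT RT, Lmod2 had 7.59 ± 0.577 CPM per kilobase (SD, n = 3), Tmod4 5.79 ± 0.775 and Nrap 4.56 ± 0.284. Myom1 followed with 3.68 ± 0.524 CPM per kilobase. Xirp2, Neb and Myom2 had 2.56 ± 0.160, 2.41 ± 0.397 and 2.28 ± 0.389 CPM per kilobase and did not differ beyond their spread. Tmod1, Xirp1 and Ttn closed the order with 1.35 ± 0.152, 1.15 ± 0.245 and 0.966 ± 0.120 CPM per kilobase, and each of these overlapped its neighbour within 1 SD. In WT Cold, Xirp1 stood next to the top, with 7.08 ± 2.93 CPM per kilobase after Lmod2 with 15.5 ± 2.86. In the GCN2 KO Cold-labelled libraries, Xirp1 was again near the bottom, at 0.508 ± 0.217 CPM per kilobase, and Myom1 was second at 2.28 ± 0.480, behind Lmod2 at 2.58 ± 1.47. The lengths count every annotated exon once, 117 kilobases for Ttn and 1.72 for Tmod4.

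The comparison of WT Cold with WT RT asks what 8 h at 4 °C did in WT mice. Xirp1 and Lmod2 rose, and the other 8 genes passed no call. Calls needed a log2 fold change beyond 1 in size and an adjusted p below 0.05, from limma on log2(normalized count + 1) with adjustment over all 16679 genes. Xirp1 had 1249 ± 490 normalized counts in WT Cold and 192.1 ± 41.5 in WT RT (SD, n = 3). Its log2 fold change was 2.64 (SE 0.29, limma adjusted p = 0.000944), or 6.24-fold. Lmod2 had 932.3 ± 166 and 430.2 ± 39.1 normalized counts (SD, n = 3). Its log2 fold change was 1.10 (SE 0.15, limma adjusted p = 0.00209), or 2.15-fold. The call of Lmod2 was near the fold threshold. It was lost without WT Cold library A, with a log2 fold change of 0.999, and with CPM scaling, with 0.97. Called higher were thus 2 of 10 genes, against 2.99% of all genes, and called lower were 0 of 10, against 5.15%, a count that was also 0 with DESeq2 and with limma at an unadjusted p below 0.05. The comparison shares its WT Cold libraries with the contrast the genes were chosen by. Without WT Cold library C, Xirp1 and Lmod2 were both still called, with log2 fold changes of 2.94 and 1.05.

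Nrap had a log2 fold change of 0.59 (SE 0.19, limma adjusted p = 0.0493), under the fold threshold, at 1115 ± 323 against 720.0 ± 17.7 normalized counts (SD, n = 3). Myom2 had 0.54 (SE 0.21, limma adjusted p = 0.0971, DESeq2 adjusted p = 0.0367). Ttn had 0.35 (SE 0.18, limma adjusted p = 0.193) and Myom1 0.26 (SE 0.16, limma adjusted p = 0.261). The remaining 4 genes had smaller log2 fold changes still, 0.19 for Tmod1, 0.047 for Neb, 0.042 for Xirp2 and -0.0062 for Tmod4, with limma adjusted p-values of 0.427 to 0.988. Thus 9 of 10 values were above 0, with a median of 0.30 against 0.0029 over all genes. WT Cold did not overlap WT RT in 3 genes, Xirp1, Nrap and Lmod2, all higher, and 22.8% of all genes separated in that direction, which is close to the share among the 10. The values of Neb, Xirp2 and Tmod4 were each smaller than their SE.

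The comparison of the GCN2 KO Cold-labelled libraries with WT Cold is the one the genes were chosen from. All 10 genes were lower, and none overlapped between the groups. In all genes tested, 10.7% were lower without overlap. Xirp1 had the largest difference, with a log2 fold change of -3.67 (SE 0.37), or 12.7-fold lower. Lmod2 had -2.66 (SE 0.45), Nrap -2.24 (SE 0.38) and Ttn -2.20 (SE 0.50). Xirp2 and Myom2 both had -2.12 (SE 0.42 and 0.46). Tmod4 had -1.81 (SE 0.57), Neb -1.78 (SE 0.35) and Tmod1 -1.62 (SE 0.35). Myom1 had the smallest difference, -0.77 (SE 0.19), or 1.70-fold lower. The median was -2.12, against -0.0031 over all genes. With limma, 1 of 10 genes passed both thresholds, against 0.196% of all genes lower. With DESeq2 on the recovered reads, 9 of 10 did, against 1.12%. With edgeR, 1 of 10 had an adjusted p below 0.05, and 0.147% of all genes passed both thresholds lower. Since this contrast chose the genes, nothing is read from those counts. Without library C of both cold groups, the median was -1.75, and limma called 7 of 10, beside 130 of all genes in either direction.

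**Figure D2:**
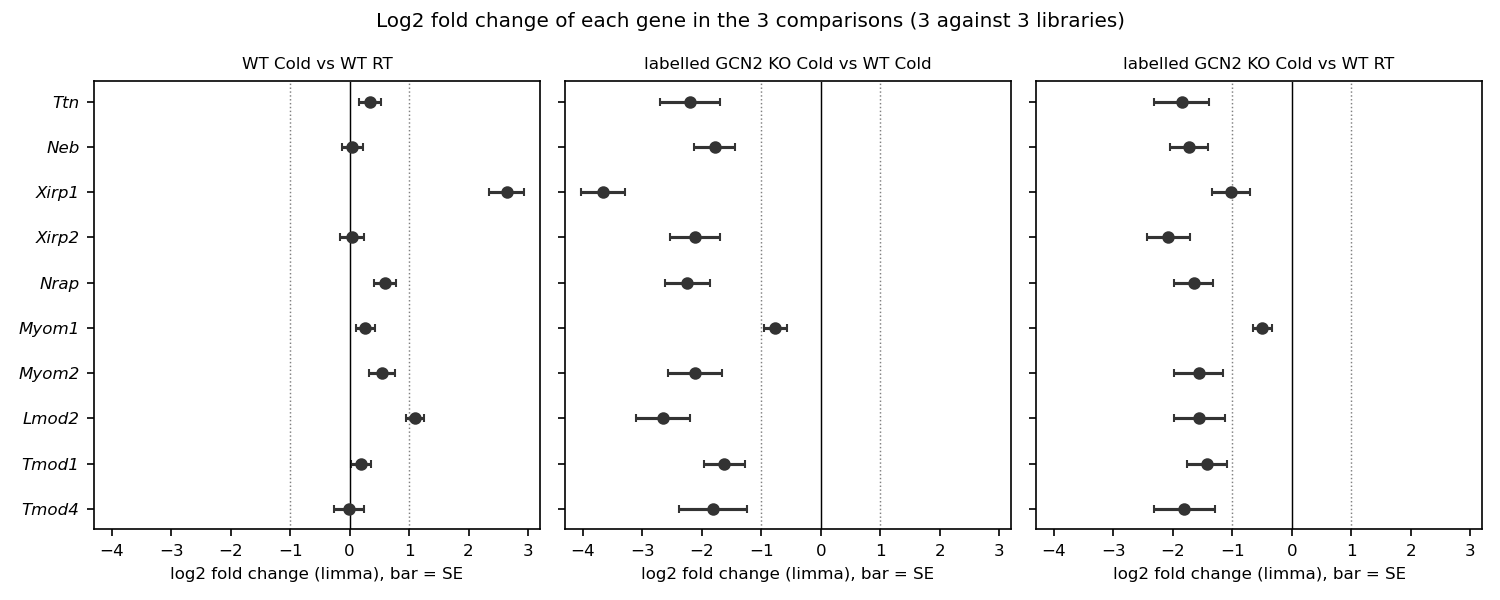
Log2 fold change of each gene in the 3 comparisons from limma on log2(normalized count + 1), with the SE as bar and 3 against 3 libraries. Dotted lines mark a log2 fold change of -1 and 1. Xirp1 reaches 2.64 in WT Cold against WT RT and -3.67 in the GCN2 KO Cold-labelled libraries against WT Cold, and Myom1 stays closest to 0 in both comparisons of the GCN2 KO Cold-labelled libraries.

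Set against WT RT, the GCN2 KO Cold-labelled libraries were lower in all 10 genes. This comparison shares its GCN2 KO Cold libraries with the contrast the genes were chosen from, and both genotype and temperature differ in it. With limma, 9 of 10 genes fell past both thresholds, against 7.58% of all genes lower, and with DESeq2 8 of 10, against 7.39%. No gene overlapped between the groups, where 25.5% of all genes were lower without overlap. Xirp2 fell most, by 2.08 on the log2 scale (SE 0.36, limma adjusted p = 0.00343), from 828.5 ± 21.5 to 217.2 ± 106 normalized counts (SD, n = 3). Ttn had a log2 fold change of -1.85 (SE 0.46, limma adjusted p = 0.0155), Tmod4 -1.81 (SE 0.51, limma adjusted p = 0.0265) and Neb -1.74 (SE 0.32, limma adjusted p = 0.00418). Nrap had -1.65, Myom2 -1.57, Lmod2 -1.55 and Tmod1 -1.43, with limma adjusted p-values of 0.00551 to 0.0236. Xirp1 fell by 1.03 (SE 0.31, limma adjusted p = 0.0357), and its DESeq2 log2 fold change of -0.97 missed the threshold. Myom1 had a log2 fold change of -0.50 (SE 0.16, limma adjusted p = 0.0408), under the fold threshold. The median was -1.61, against 0.0091 over all genes, and -1.09 without library C of the GCN2 KO Cold-labelled libraries, when 7 of 10 genes passed beside 1469 of all genes in either direction. It was 5 of 10 without WT RT library A, beside 1486 of all genes, and 5 of 10 without WT RT library C, beside 1551. With all libraries, 1754 of all genes were called.

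Other striated muscle genes were lower in the same libraries. In bulk tissue, fewer muscle cells and less RNA of these genes per cell cannot be told apart. Of 18 skeletal muscle genes outside the sarcomere, such as the creatine kinase Ckm and the calcium pump Atp2a1, all 18 were listed. Their summed level was 2381 to 2816 CPM in WT RT, 2634 to 3529 in WT Cold and 2209 to 2665 in the GCN2 KO Cold-labelled libraries. Cox8b, a cytochrome oxidase subunit also abundant in brown fat, took 1240 ± 86.6, 1524 ± 147 and 1990 ± 36.6 CPM of those sums (SD, n = 3), in the same order. Without it, the sums were 1173 to 1478, 1131 to 1959 and 238 to 700 CPM. The median log2 fold change of the list was 0.29 for WT Cold against WT RT, where 0 of 18 genes were called higher and 1 lower. It was -1.92 against WT Cold and -1.56 against WT RT in the GCN2 KO Cold-labelled libraries, with 0 and 11 of 18 called lower by limma and 6 in each by DESeq2. Those medians lie beside the -2.12 and -1.61 of the 10 genes. The part of muscle content in the differences of the 10 genes was not tested.

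Lists of neighbours in the sarcomere had medians below 0 in the GCN2 KO Cold-labelled libraries, beside the -1.61 of the 10 genes against WT RT, and no test compared the lists. All lists were chosen with earlier results of these data known, so their counts and p-values are a description. Z-disc and thin filament partners had a median of -1.52 on the log2 scale against WT RT, with 10 of 18 listed genes called lower by limma, among them the titin cap Tcap (-1.61, SE 0.51, limma adjusted p = 0.0402). Above 0 were 3 of 18 values, among them the most abundant gene, Capza2 (0.14, SE 0.08, limma adjusted p = 0.205). M-band and titin partners had a median of -1.5, with 11 of 17 lower, such as the myosin-binding protein Mybpc1 (-2.02, SE 0.37, limma adjusted p = 0.00446). In that list 3 of 17 values were above 0, among them Trim63, a muscle ubiquitin ligase that binds titin (0.85, SE 0.51, limma adjusted p = 0.23). Of 14 myofibril assembly factors, 6 were lower with a median of -0.74, including the small heat shock protein Cryab (-1.20, SE 0.15, limma adjusted p = 0.000908). In the same list 4 of 14 values were above 0, among them Bag3, a co-chaperone in the turnover of Z-disc proteins, at 0.91 (SE 0.11, limma adjusted p = 0.000883), under the fold threshold. Fast muscle sarcomere genes had 10 of 12 lower, or 6 by DESeq2, and a median of -1.69, with Acta1, skeletal actin, at -1.77 (SE 0.45, limma adjusted p = 0.0177). Slow muscle sarcomere genes had 8 of 11 lower and a median of -1.996, with Myh7, the slow myosin heavy chain, at -2.36 (SE 0.46, limma adjusted p = 0.00551). The most abundant gene of that list, the calcium pump Atp2a2, which many tissues express, was the 1 of 11 above 0, at 0.54 (SE 0.08, limma adjusted p = 0.00168), under the fold threshold. Several genes are in more than 1 list. The share called lower among all genes was the 7.58% given above.

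In WT Cold against WT RT, the same lists were called in part. With limma, of the Z-disc and thin filament partners 4 of 19 rose, of the M-band and titin partners 2 of 17, of the assembly factors 4 of 14, of the slow sarcomere genes 3 of 11 and of the fast ones 0 of 12, where 2.99% of all genes did. None was called lower in these lists by limma, and DESeq2 called 1 assembly factor lower. The largest rise was in Trim63, with a log2 fold change of 3.57 (SE 0.13, limma adjusted p = 2.12e-05). Among the 4 most abundant assembly factors, those called were Hspb7, a heat shock protein that binds filamin, with 1.43 (SE 0.19, limma adjusted p = 0.00208), and Bag3, with 1.18 (SE 0.11, limma adjusted p = 0.000591). Median log2 fold changes ran from 0.19 in the fast list to 0.91 in the slow list, against 0.30 for the 10 genes.

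Related genes outside striated muscle passed no call. The 12 paralogs, such as Tmod3, Actn4, Flna and Lasp1, had 0 genes called in each of the 3 comparisons by limma and by DESeq2. Their medians were 0.31, -0.12 and 0.16 for WT Cold against WT RT, then for the GCN2 KO Cold-labelled libraries against each WT group, cold first. Tmod3, the widely expressed tropomodulin, had a log2 fold change of -0.14 (SE 0.09) against WT Cold, where Tmod1 and Tmod4 had -1.62 and -1.81. Whether the paralogs and the 10 genes differ was not tested. Heart muscle markers were sparse, with 6 of 10 listed, a summed level of 17.95 to 34.9 CPM, and Myl7, Tnni3, Nppa and Nppb not listed. Brown adipocyte markers had medians of 0.23, 0.17 and 0.54 in the same order, with 4, 0 and 4 of 12 genes called higher and 0 lower.

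Markers of some other cell types also differed between the groups. Red blood cell markers were called higher for 5 of 6 genes in WT Cold against WT RT and 6 of 6 in the GCN2 KO Cold-labelled libraries against WT RT, with summed levels of 260 to 345, 572 to 2281 and 1085 to 2082 CPM in WT RT, WT Cold and the GCN2 KO Cold-labelled libraries. Macrophage markers were called lower for 2 and 5 of 6 genes, with sums of 290 to 452, 148 to 219 and 106 to 167 CPM. Smooth muscle and endothelial markers had 0 of 6 genes called in each comparison, and Schwann cell markers 1 of 6, lower against WT Cold. Of 14 muscle regulators such as myogenic factors, 10 were listed against WT RT in WT Cold and 8 in the other comparisons, and 1 was called, lower, in the GCN2 KO Cold-labelled libraries against WT RT. The part of these cell types in the levels of the 10 genes was not tested.

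**Figure D3:**
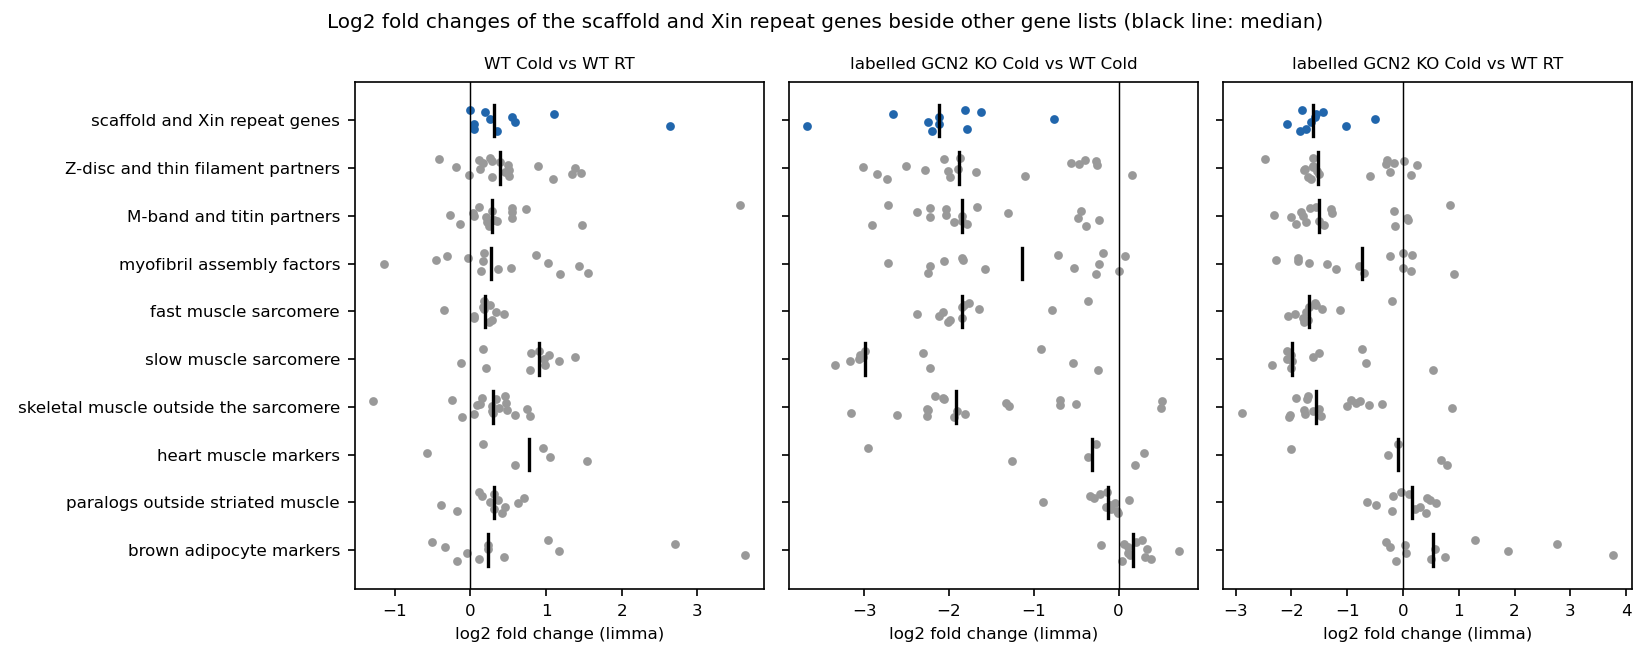
Log2 fold change (limma) of each listed gene in the 3 comparisons, 1 row per gene list, with the scaffold and Xin repeat genes in blue and a black line at each list's median. In both comparisons of the GCN2 KO Cold-labelled libraries the medians of the sarcomere and skeletal muscle lists are below 0, while the paralogs outside striated muscle (-0.12 and 0.16) and brown adipocyte markers (0.17 and 0.54) lie around or above it.

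The levels were then set relative to muscle, by subtracting in each library the median log2 change of the 18 skeletal muscle genes from that of each of the 10 genes, with WT RT as 0. The 18-gene median was 0.44, 0.44 and -0.30 in WT Cold libraries A, B and C, and -0.85, -1.16 and -2.68 in the GCN2 KO Cold-labelled libraries. Relative to it, Xirp1 remained high in WT Cold, at 2.55, 1.98 and 2.08, above the WT RT range of -0.51 to 0.31. Lmod2 was also above WT RT, at 0.76, 0.24 and 1.33 against -0.10 to 0.13. No other gene exceeded every WT RT library in WT Cold with this reference, and Neb and Tmod4 were below all of them. In the GCN2 KO Cold-labelled libraries, the relative level of the 10 genes had a median of -0.031, or -0.31 with the mean of the 18 genes as reference, where the unadjusted median was -1.61. Xirp1 there was at 0.35, 0.12 and 1.26 and Lmod2 at -0.026, -0.10 and 0.25, and both overlapped WT RT. Ttn and Xirp2 were still below every WT RT library, with means of -0.44 ± 0.10 and -0.54 ± 0.24 (SD, n = 3). Myom1 was above them, with a mean of 0.88 ± 0.72 (SD, n = 3). Against WT Cold, with the same reference, the GCN2 KO Cold-labelled libraries differed by -1.62 in Xirp1 and -0.51 in Ttn, both without overlap. Myom1 differed by 0.90 without overlap, and the other genes overlapped. With the mean of the 18 genes in place of the median, 7 of 10 genes rather than 2 were below every WT RT library in the GCN2 KO Cold-labelled libraries, among them Lmod2 at -0.24. In WT Cold, Myom2 was then also above every WT RT library, at 0.28. These counts and the median thus depend on how the muscle level is set. Both references kept Cox8b, which is also abundant in brown fat. It had a log2 fold change of 0.89 (SE 0.09) in the GCN2 KO Cold-labelled libraries against WT RT. Its part in the counts was not tested, and no share over all genes stands beside them.

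**Figure D4:**
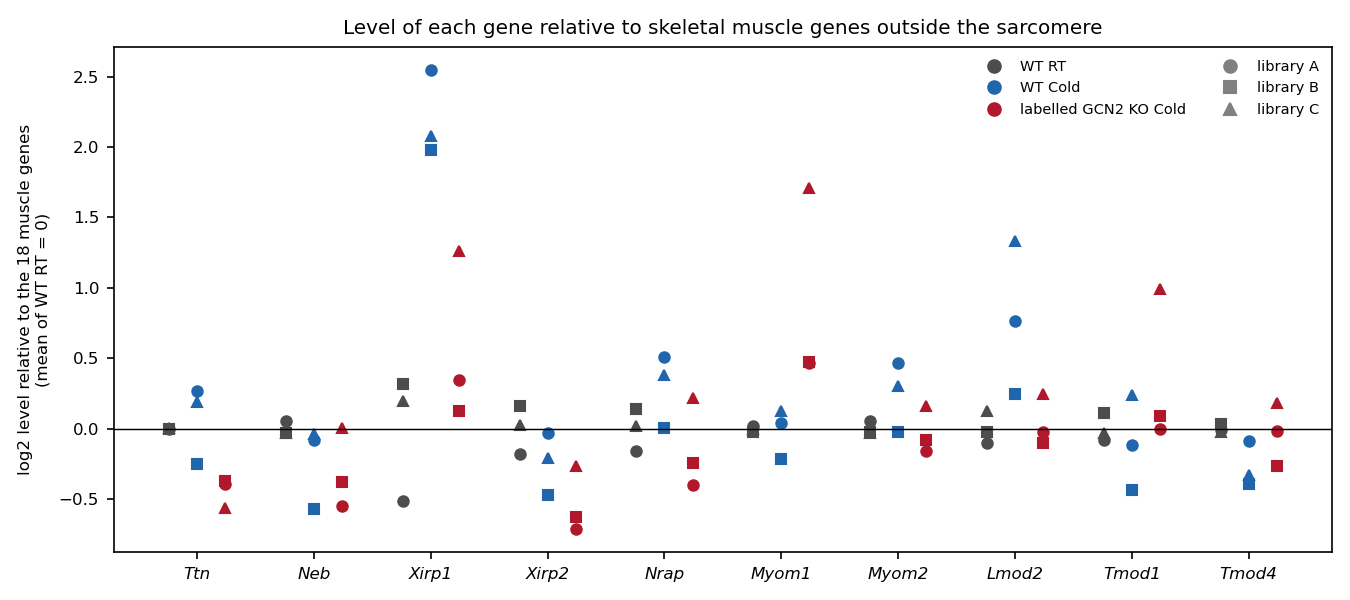
Log2 level of each gene in each library relative to the median change of 18 skeletal muscle genes outside the sarcomere, with the mean of WT RT set to 0. Colour gives the group and marker shape the library. Xirp1 in WT Cold lies between 1.98 and 2.55, above all other points of that gene, and most values of the GCN2 KO Cold-labelled libraries lie within 1 of 0.

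The genes whose pattern over the 9 libraries was most like the mean of the 10 included Ldb3, Cmya5, Tmem38a and Myot, with Pearson's r of 0.996, 0.995, 0.993 and 0.993 among 14027 candidates. Ldb3 and Myot are Z-disc proteins, and Tmem38a is a channel of the sarcoplasmic reticulum. For Xirp1 alone they were Cavin4, Fam134b, Atcayos, Ripk4 and Ybx3, with r from 0.983 to 0.976. Cavin4, a caveolar protein of muscle, had mean levels of 4.02, 11.3 and 2.22 CPM in WT RT, WT Cold and the GCN2 KO Cold-labelled libraries. Fam134b, a receptor for autophagy of the endoplasmic reticulum, had 29.4, 95.2 and 24.8 CPM. For Lmod2 they were Actn2, Gpr157, Myo18b, Abra and Myl2, with r from 0.985 to 0.981. Actn2, the alpha-actinin of the Z-disc, had 34.8, 71.5 and 10.9 CPM, and Myl2, the slow ventricular myosin light chain, 37.0, 79.6 and 10.3 CPM. The likeness is a ranking over 3 groups of libraries and carries no test.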

How the data were processed

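RNA of brown adipose tissue was measured in 9 libraries, 3 per group. Per the labels and the study's methods, poly(A) libraries were read in pairs, trimmed with Trimmomatic 0.36, aligned with STAR 2.5.2b and counted per gene with featureCounts (Subread 1.5.2), with GRCm39 in the submitters' processing notes. The deposited values are a signal per gene and library, whole read counts that the authors scaled with size factors, separately in each of the 3 tables. The authors' own fold changes (log2) and p-values in the deposited tables were not used. Columns carry library codes and were tied to groups by the tables they occur in. Whole reads were recovered for 100% of values (tolerance 0.01 of a step). Columns of other samples numbered 0, and the least covered listed gene had 61 reads over 6 libraries.

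With limma 3.58.1 in R 4.3.3, each comparison was fitted within its own table, on the log2 scale after adding 1, with the prior variance trended on the mean level, and p-values were adjusted over all genes by Benjamini-Hochberg. That scale understates changes of low genes. DESeq2 1.42.0, edgeR 4.0.16, other pseudocounts (0.5 and 5), a minimum mean count of 50, CPM scaling, 1 fit of all 9 libraries and each library left out in turn were alternatives. Each tool was also run on simulated data, from which nothing is concluded here. Lengths and overlaps are from GENCODE M21 on GRCm38, promoters from RefSeq on GRCm38.p6. The genes and all lists were chosen with earlier results of these data known. Listed genes named are among the 4 most abundant of their list, and like genes the 5 nearest with a mean CPM of at least 1, of which 1 is not reported here. Cox8b as a gene left out of a sum, Ddx3y, Xist and Tstd2 were named after their values were seen. P-values measure the spread between the libraries of a group.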

Additional observations from a re-analysis of the deposited data

How the results depend on the processing

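No paired analysis was possible because the library columns carry no mouse or replicate number. In WT Cold against WT RT, where 2 of the 10 genes and 1357 of all genes were called, CPM scaling gave 1 and 869 and a fit of all 9 libraries 1 and 871, Lmod2 being the gene lost. Leaving out each library gave 1 to 2 genes, and 1090 to 1854 among all genes, and without a fold threshold 4624 genes were called. In the GCN2 KO Cold-labelled libraries against WT Cold, 1 of the 10 and 42 of all genes were called by limma. DESeq2 gave 9 and 209, the fit of all 9 libraries 8 and 156, CPM scaling 3 and 66, and no fold threshold 66 among all genes. With edgeR, 1 of the 10 had an adjusted p below 0.05, and of all genes 24 were called lower and 9 higher. Leaving out each library gave 0 to 1 of the 10 genes and 3 to 22 of all, with 0 without WT Cold A, WT Cold B or GCN2 KO Cold B, and leaving out library C of both cold groups, an alternative added after the data were seen, gave 7 and 130. Against WT RT, where 9 and 1754 were called, leaving out each library gave 5 to 9 of the 10 genes and 1424 to 1875 of all, and no fold threshold gave 5657 of all. The cause of these differences was not tested.

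Relative to the skeletal muscle list, also added after the data were seen and without a test, the median log2 fold change of the 10 genes moved from 0.30 to 0.024, from -2.12 to -0.29 and from -1.61 to -0.031 in the 3 comparisons. In the second, Myom1, Tmod1 and Tmod4 turned from lower to 0.90, 0.46 and 0.24, of which only Myom1 was without overlap. Xirp1 and Ttn stayed lower there without overlap, at -1.62 and -0.51. In the last, Xirp1, Lmod2 and Tmod1 turned from called lower to 0.58, 0.040 and 0.36. With the mean of that list in place of its median, the medians against WT RT were 0.054 in WT Cold and -0.31 in the GCN2 KO Cold-labelled libraries, and there Xirp1 and Tmod1 were at 0.29 and 0.076, while Lmod2 did not turn, at -0.24. Under the other alternatives run each median kept its sign, and leaving out each library gave 0.13 to 0.47, -2.44 to -1.56 and -1.93 to -1.09. Depth limits Tmod1 and Tmod4 most, with as few as 26 and 25 reads in a library.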
